A study of Homo sapiens with 28 samples.

Results

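Iron-sulfur cluster assembly was followed in SEM cells through 9 genes, BOLA3, NFU1, ISCA1, ISCA2, IBA57, GLRX5, ISCU, NFS1 and LYRM4, which were taken by symbol from 57820 annotated genes in 28 RNA-seq libraries. BOLA3 was picked because its mRNA was low in CTCF-depleted cells at 24 h, and the other 8 genes were added for their place in the same pathway, with the question of whether the BOLA3 change stood alone in it. SEM is an established human B cell precursor leukemia line. In CTCF-AID2 cells the endogenous CTCF carries an auxin-inducible degron and mClover3, and the cells make OsTIR1(F74G) from a lentiviral MND promoter, so that the ligand 5-Ph-IAA directs CTCF to degradation. These cells also keep the doxycycline-inducible wild-type OsTIR1 of their parent line.

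The 24 h set held 4 CTCF-AID2 libraries with 5-Ph-IAA and 4 untreated, and 2 libraries of unmodified SEM WT cells with IAA and 2 untreated. The titles and a supplementary legend of the study give a 5-Ph-IAA dose of 1 µM for 24 h. The treatment protocol and the methods give 10 µM for that time, so the dose is uncertain. For SEM WT cells the titles name IAA alone, whereas the treatment protocol and the study's methods give IAA at a high dose with doxycycline. Doxycycline was thus given by the methods, though the titles do not show it. The methods give DMSO for the untreated cells, which the titles do not name. The 6 h set held 2 libraries with IAA and 2 untreated of each of 4 lines, all degron cells that also carry a doxycycline-inducible CTCF transgene, which is full length (the WT line) or lacks zinc finger 1 (dZF1), zinc finger 10 (dZF10) or the RNA-binding region (dRBR). The labels of the 6 h set name only IAA, where the study describes 5-Ph-IAA for these cells, and they do not say whether the transgene was switched on in the treated or the untreated libraries. They do not say either that replicates were separate cultures, so p-values measure the spread between libraries, which may be technical.

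In units of 1e+06 counts, totals per library were 45.7 to 59.8 at 24 h and 25.8 to 60.7 at 6 h. CTCF mRNA, which does not report on CTCF protein, averaged 252 ± 3.04 CPM (counts per 1e+06 counts, normalized with TMM factors) with 5-Ph-IAA and 147 ± 3.18 CPM without in CTCF-AID2 cells (SD, n = 4 each). The B cell precursor markers CD79A, CD79B, VPREB1, PAX5 and RAG1 were above 1 CPM in every library, the T cell and erythroid markers reached at most 0.0818 CPM, and of the myeloid markers only CSF1R (9.32 to 26.4 CPM) was above 1 CPM. COL1A1, a stromal marker, had 0.282 to 1.88 CPM. The 2 dZF1 libraries with IAA stood apart from each other, with a median difference of 0.27 on the log2 scale against 0.05 to 0.13 for the other replicate pairs. The main results of the members that rest on them are therefore also given without them. For genes that are not members, the 6 h means include these libraries. No pair of replicates agreed within counting noise. The SEM WT libraries of the 24 h set had a smaller share of non-whole estimated counts (7.10 to 7.52% of detected genes) than the CTCF-AID2 libraries (17.5 to 19.5%), so that cell line and processing cannot be told apart and the lines were not compared with each other.

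Iron-sulfur clusters are inorganic cofactors that are built inside mitochondria. NFS1, a cysteine desulfurase, takes sulfur from cysteine with the help of its stabilizing partner LYRM4 (ISD11), and a first cluster forms on the scaffold ISCU. The monothiol glutaredoxin GLRX5 then carries the cluster onward, ISCA1 and ISCA2 with their partner IBA57 make the larger cubane clusters, and NFU1 and BOLA3 act last, in delivery to lipoyl synthase and respiratory enzymes. Inherited loss of NFU1 or BOLA3 causes multiple mitochondrial dysfunctions syndromes, in which lipoylated enzymes such as pyruvate dehydrogenase fail. CTCF is a zinc finger protein that binds DNA at many promoters and at the anchors of chromatin loops.

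BOLA3 (ENSG00000163170.7) lies on the minus strand of chromosome 2, at chr2:74362527-74375039 in GRCh37 (hg19), the build of the files. The sequence just before its start is shown because it is the member with the lowest fold change, and that of GLRX5 (ENSG00000182512.4, chr14:95999840-96011061, plus strand) is shown beside it because it holds the same core letters while its mRNA level was higher with ligand. Both are the 250 bases before the RefSeq start, read 5′ to 3′ on the gene's strand, in GRCh38.p14 (BOLA3, chr2:74147913-74148162, minus strand, and GLRX5, chr14:95534800-95535049, plus strand). Capitals mark AGGNGGC, letters from the core of the motif that CTCF is known to bind, searched on both strands.
BOLA3: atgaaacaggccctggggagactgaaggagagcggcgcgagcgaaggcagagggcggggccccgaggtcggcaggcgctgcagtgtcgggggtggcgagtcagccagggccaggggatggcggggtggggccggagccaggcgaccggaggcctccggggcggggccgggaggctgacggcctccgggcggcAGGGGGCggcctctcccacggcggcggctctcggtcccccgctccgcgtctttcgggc
GLRX5: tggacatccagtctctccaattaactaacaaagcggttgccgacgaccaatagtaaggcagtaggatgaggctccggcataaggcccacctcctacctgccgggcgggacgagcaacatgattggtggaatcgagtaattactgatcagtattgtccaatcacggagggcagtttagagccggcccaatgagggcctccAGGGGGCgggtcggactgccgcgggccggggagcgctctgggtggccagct
The match ends 51 bases before the BOLA3 start and 44 bases before the GLRX5 start. The 9 members had 11 such windows, of which 4 held a match, 1 each for BOLA3, GLRX5, ISCA2 and LYRM4. Of all 35116 RefSeq promoter windows of the same length 31.5% held a match. A match is a description of letters and does not show a binding site, and no binding data were used here.

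The level of BOLA3 in CTCF-AID2 cells at 24 h was far below that without ligand. BOLA3 stood at 1.14, 0.960, 0.679 and 1.24 CPM in the 4 libraries with 5-Ph-IAA, against 11.3, 11.2, 10.5 and 10.9 CPM in the 4 untreated libraries. Every treated library lay far below every untreated one (in bulk RNA, fewer cells with a transcript and less of it per cell cannot be told apart), and the 4 untreated libraries lay close together. The treated values rest on 41 to 68 counts per library and the untreated values on 515 to 654. The log2 fold change was -3.48 ± 0.13 (SE, 95% interval -3.76 to -3.21), an 11.2-fold lower level with ligand. BOLA3 had the 7th lowest log2 fold change of 13973 genes tested at 24 h. Since BOLA3 was chosen from this contrast, these values and those of the other members in it are a description, and no test is given.

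**Figure D1:**
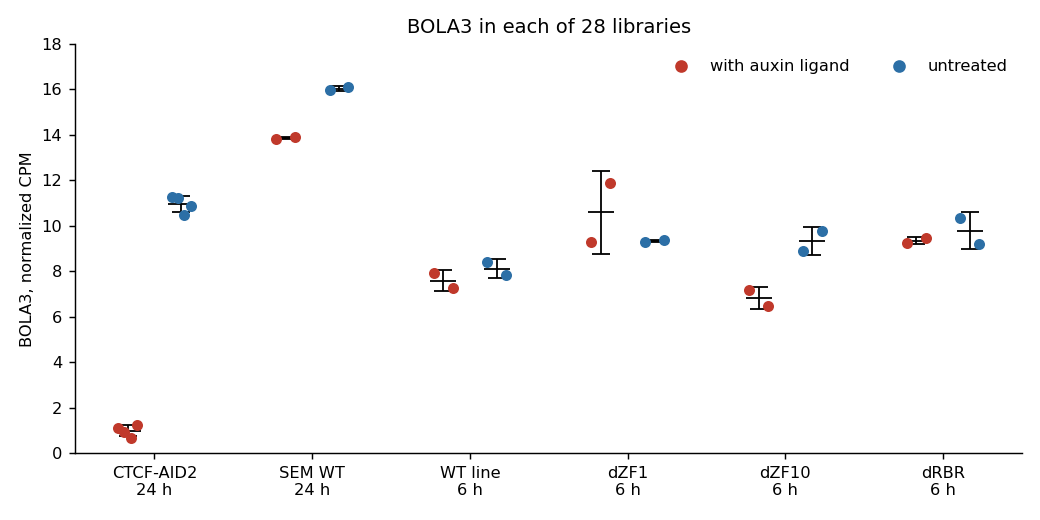
BOLA3 in normalized CPM (vertical axis) in each of 28 libraries, by line and time, with auxin ligand (red) left of untreated (blue). Points are libraries and bars are the mean and SD. The 4 treated CTCF-AID2 libraries lie between 0.679 and 1.24 CPM, while the 24 other libraries lie between 6.50 and 16.1 CPM.

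The other 8 members did not share this size of change in CTCF-AID2 cells. Their log2 fold changes lay between -0.22 (LYRM4) and 0.46 (NFU1), so none was 2-fold lower or higher. The treated libraries lay entirely below the untreated ones for 4 of the 9 members (BOLA3, ISCA1, IBA57 and LYRM4), entirely above them for 4 (NFU1, GLRX5, ISCU and NFS1), and overlapped with them for ISCA2. Over all genes tested, 29.2% were higher and 29.5% lower at an adjusted p of at most 0.05 (limma-voom with Benjamini-Hochberg adjustment), 3.56% also changed at least 2-fold, and the groups did not overlap for 52.6%.

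The genes of the first step differed little between treated and untreated cells, and in opposite directions. NFS1 (ENSG00000244005.8, chr20:34255974-34287277, minus strand), the desulfurase, stood at 20.9, 20.8, 21.4 and 21.1 CPM with 5-Ph-IAA, against 17.3, 16.8, 18.3 and 16.5 CPM without, a log2 fold change of 0.29 ± 0.05 (SE). LYRM4 (ENSG00000214113.6, chr6:5103863-5261183, minus strand), its partner, stood at 24.0, 23.7, 22.9 and 26.5 CPM with ligand, against 28.2, 27.9, 28.3 and 28.5 CPM without, a log2 fold change of -0.22 ± 0.04. All 4 treated libraries were thus above the untreated ones for the enzyme and below them for the protein that stabilizes it. ISCU (ENSG00000136003.11, chr12:108956358-108963144, plus strand), the scaffold, stood at 56.8, 58.6, 54.2 and 61.1 CPM with ligand, against 47.1, 45.3, 47.4 and 44.8 CPM without, a log2 fold change of 0.32 ± 0.04.

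In the transfer steps GLRX5 was higher, and the A-type carriers and IBA57 were slightly lower or level. GLRX5 stood at 76.1, 77.5, 74.6 and 77.5 CPM with 5-Ph-IAA, against 59.2, 61.0, 56.6 and 60.1 CPM without, a log2 fold change of 0.37 ± 0.03. ISCA1 (ENSG00000135070.9, chr9:88879461-88898017, minus strand) stood at 28.5, 28.1, 28.6 and 27.0 CPM with ligand, against 30.7, 30.5, 31.8 and 30.5 CPM without, and ISCA1 had a log2 fold change of -0.14 ± 0.05. Both pairs of groups lay apart, GLRX5 by more than ISCA1. ISCA2 (ENSG00000165898.9, chr14:74960459-74963809, plus strand) stood at 17.4, 17.2, 16.2 and 17.5 CPM with ligand, against 17.6, 18.2, 17.6 and 16.03 CPM without, with a log2 fold change of -0.02 ± 0.05. IBA57 (ENSG00000181873.8, chr1:228353505-228369958, plus strand), the folate-binding partner of both, had 11.6 to 12.3 CPM with ligand and 12.6 to 13.7 CPM without, a log2 fold change of -0.13 ± 0.05.

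NFU1, the carrier that works beside BOLA3, was the highest of the 9 by fold change. NFU1 (ENSG00000169599.8, chr2:69623245-69664760, minus strand) stood at 32.7, 32.8, 31.1 and 34.6 CPM with 5-Ph-IAA, against 24.1, 23.2, 24.0 and 23.9 CPM without. Every treated library exceeded every untreated one, and the log2 fold change of NFU1 was 0.46 ± 0.04. The late-acting pair thus lay at the opposite ends of the 9 log2 fold changes, -3.48 for BOLA3 and 0.46 for NFU1. ISCA2, GLRX5 and NFS1 overlap an expressed gene on the other strand (NPC2, SNHG10 with SCARNA13, and ROMO1), and since the use of strand in counting is not stated, their values may include reads of those genes. ISCA1 has a pseudogene copy, ISCA1P1, with 18 to 52 counts a library.

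**Figure D2:**
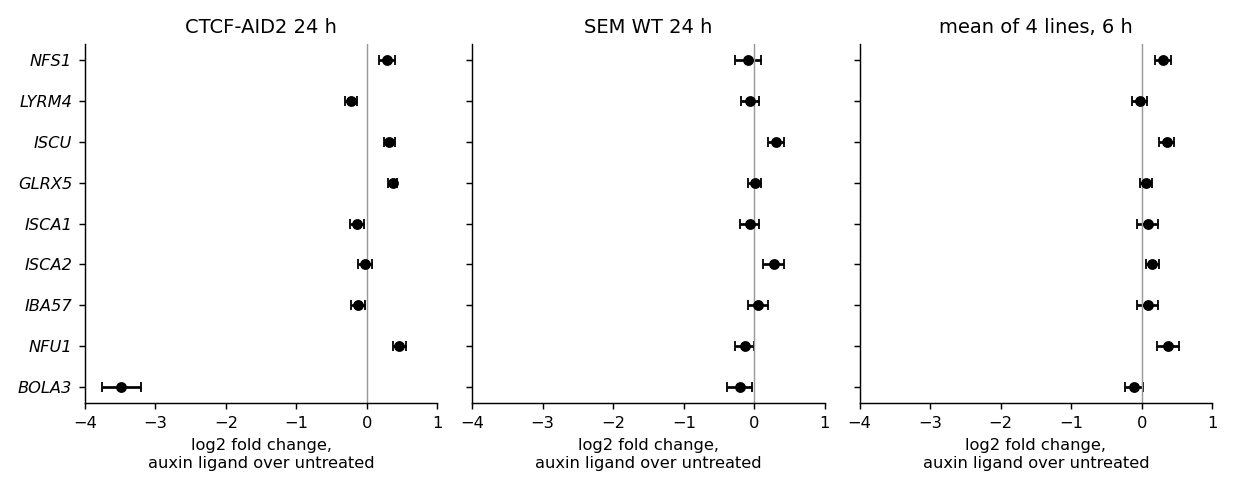
Log2 fold change of the 9 members, auxin ligand over untreated (horizontal axis), in CTCF-AID2 cells at 24 h, SEM WT cells at 24 h and as the mean of the 4 lines at 6 h. Points are limma-voom estimates and bars are 95% intervals. BOLA3 is at -3.48 in CTCF-AID2 cells, -0.21 in SEM WT cells and -0.11 at 6 h, and the other 8 genes lie between -0.22 and 0.46 in all 3 panels.

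SEM WT cells have no degron on CTCF and were compared with and without IAA. This is another compound than the 5-Ph-IAA of the CTCF-AID2 cells, at a high dose and with doxycycline by the methods, so the comparison is no control for 5-Ph-IAA itself. Of the 9 members 2 rose with IAA at 24 h and none fell, while 9.34% of all genes tested rose and 9.55% fell. ISCU rose to 50.4 and 52.6 CPM with IAA, against 41.8 and 41.5 CPM without (log2 fold change 0.31 ± 0.06, SE, limma-voom adjusted p = 0.00173). ISCA2 rose to 19.2 and 19.1 CPM with IAA, against 15.70 and 16.03 CPM without (0.27 ± 0.07, limma-voom adjusted p = 0.0113). The ISCA2 call was lost without replicate 1 of the untreated SEM WT libraries (adjusted p = 0.0877) and without replicate 2 of those with IAA (adjusted p = 0.0649).

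BOLA3 stood at 13.8 and 13.9 CPM in SEM WT cells with IAA, against 15.96 and 16.11 CPM without. Both treated libraries were below both untreated ones, but the change did not pass the test (log2 fold change -0.21 ± 0.08, 95% interval -0.38 to -0.04, limma-voom adjusted p = 0.0852). NFU1 had 21.8 and 19.4 CPM with IAA, against 23.1 and 22.1 CPM without, and its log2 fold change of -0.14 (adjusted p = 0.163) did not pass either. NFU1 thus stood above its untreated level in CTCF-AID2 cells with 5-Ph-IAA and not in SEM WT cells with IAA. The difference was not tested, because the CTCF-AID2 contrast chose the genes, and line and compound cannot be told apart in it. The remaining 5 members, NFS1, LYRM4, ISCA1, IBA57 and GLRX5, had log2 fold changes of -0.09 to 0.05 in SEM WT cells. The intervals of those 5 all lay within -0.27 and 0.19.

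At 6 h, in the mean of the auxin effects of the 4 transgene lines, 4 of the 9 members rose and none fell, while 25.1% of all genes tested rose and 26.4% fell. NFU1 rose by 0.37 ± 0.07 on the log2 scale (SE, limma-voom adjusted p = 0.00125). ISCU rose by 0.35 ± 0.05 (adjusted p = 7.06e-05), NFS1 by 0.30 ± 0.05 (adjusted p = 0.000558) and ISCA2 by 0.15 ± 0.04 (adjusted p = 0.00989). These genes also passed the test in the mean of the WT, dZF10 and dRBR lines, fitted with no dZF1 library, at log2 fold changes of 0.30 for NFU1, 0.28 for ISCU, 0.36 for NFS1 and 0.19 for ISCA2, and there IBA57 rose too, by 0.15 (limma-voom adjusted p = 0.0117).

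The mean 6 h change of BOLA3 was small and depended on the dZF1 line. It was -0.11 ± 0.06 with all lines (95% interval -0.24 to 0.02, limma-voom adjusted p = 0.154) and -0.21 (adjusted p = 0.0115) with no dZF1 library. Leaving out replicate 2 of dZF1 with IAA alone gave -0.16 (adjusted p = 0.0195). Against the 11.2-fold lower level at 24 h in CTCF-AID2 cells, the lowest BOLA3 level of any single line at 6 h was 1.38-fold lower with IAA (dZF10). The sets differ in time, ligand as labelled, transgene and normalization, so that time alone cannot be told apart from the rest.

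By line, BOLA3 passed the test at 6 h in dZF10 cells only. BOLA3 stood at 7.17 and 6.50 CPM with IAA in dZF10 cells, against 8.89 and 9.77 CPM without, and fell by 0.47 ± 0.12 on the log2 scale (limma-voom adjusted p = 0.0200). This call was lost with no filter on low counts (adjusted p = 0.0728), and also without replicate 1 with IAA (adjusted p = 0.0514), without replicate 2 with IAA (adjusted p = 0.130) and without untreated replicate 2 (adjusted p = 0.172). In WT line cells BOLA3 had 7.93 and 7.27 CPM with IAA, against 8.41 and 7.84 CPM without, and the groups overlapped (log2 fold change -0.10 ± 0.13, adjusted p = 0.667). In dRBR cells it had 9.25 and 9.46 CPM with IAA, against 10.4 and 9.22 CPM without, and these overlapped as well (-0.05 ± 0.12, adjusted p = 0.842). In dZF1 cells BOLA3 had 9.30 and 11.9 CPM with IAA, against 9.31 and 9.36 CPM without, so that only 1 of the 2 libraries that stood apart from each other was high. Its log2 fold change there was 0.18 ± 0.12 (adjusted p = 0.239), it was 0.34 (adjusted p = 0.0135) without replicate 1 of dZF1 with IAA, and -0.0045 (adjusted p = 0.983) without replicate 2.

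NFU1 and ISCU were higher with IAA in both libraries of each of the 4 lines. NFU1 stood at 24.2 and 24.3 CPM with IAA in WT line cells, against 19.52 and 19.001 CPM without. In dZF1 cells NFU1 had 23.8 and 35.6 CPM with IAA, against 19.85 and 18.99 CPM without, in dZF10 cells 27.4 and 23.7 CPM, against 20.4 and 19.9 CPM, and in dRBR cells 20.6 and 21.3 CPM, against 17.9 and 17.9 CPM. By single line NFU1 passed in dZF1 cells (log2 fold change 0.59 ± 0.14, limma-voom adjusted p = 0.00882), a call lost without replicate 2 of untreated dZF1 cells (adjusted p = 0.0650), and its adjusted p in the other 3 lines was 0.123 to 0.372. Without replicate 2 of dZF1 with IAA, the higher library, its log2 fold change in dZF1 cells was 0.29 (adjusted p = 0.0343). ISCU, the scaffold, had 54.6 and 68.0 CPM with IAA in dZF1 cells, against 40.7 and 41.3 CPM without, and rose by 0.58 ± 0.09 on the log2 scale (limma-voom adjusted p = 0.000964). Its log2 fold change there was 0.41 (adjusted p = 0.00177) without replicate 2 of dZF1 with IAA and 0.72 (adjusted p = 7.97e-06) without replicate 1. In a fit on only the 4 dZF1 libraries both dZF1 calls were lost, with limma-voom adjusted p of 0.210 for NFU1 and 0.154 for ISCU. ISCU had 48.7 to 53.2 CPM with IAA in the other 3 lines, against 40.5 to 44.8 CPM without, and its log2 fold changes of 0.27 to 0.30 there had adjusted p of 0.0621 to 0.0854. Fitted on only the WT line libraries, both genes passed in WT line cells, with limma-voom adjusted p of 0.0115 for NFU1 and 0.0222 for ISCU.

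NFS1 had its largest 6 h change in dZF10 cells. NFS1 stood at 21.6 and 19.4 CPM with IAA in dZF10 cells, against 12.6 and 13.5 CPM without, and rose by 0.64 ± 0.10 on the log2 scale (limma-voom adjusted p = 0.00123). In WT line cells NFS1 had 15.71 and 16.03 CPM with IAA, against 13.2 and 12.8 CPM without, in dZF1 cells 14.01 and 13.61 CPM, against 13.1 and 12.7 CPM, and in dRBR cells 14.7 and 16.4 CPM, against 15.8 and 12.7 CPM. The groups overlapped only in dRBR cells, and NFS1 did not pass in these 3 lines (adjusted p of 0.105 to 0.472). Fitted on only the WT line libraries, NFS1 passed in WT line cells (limma-voom adjusted p = 0.0316). The dZF10 effect on NFS1 was larger than the WT line effect by 0.35 ± 0.15, a difference that did not pass (limma-voom adjusted p = 1). ROMO1, on the other strand, overlaps NFS1, and its part in the NFS1 values was not tested.

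**Figure D3:**
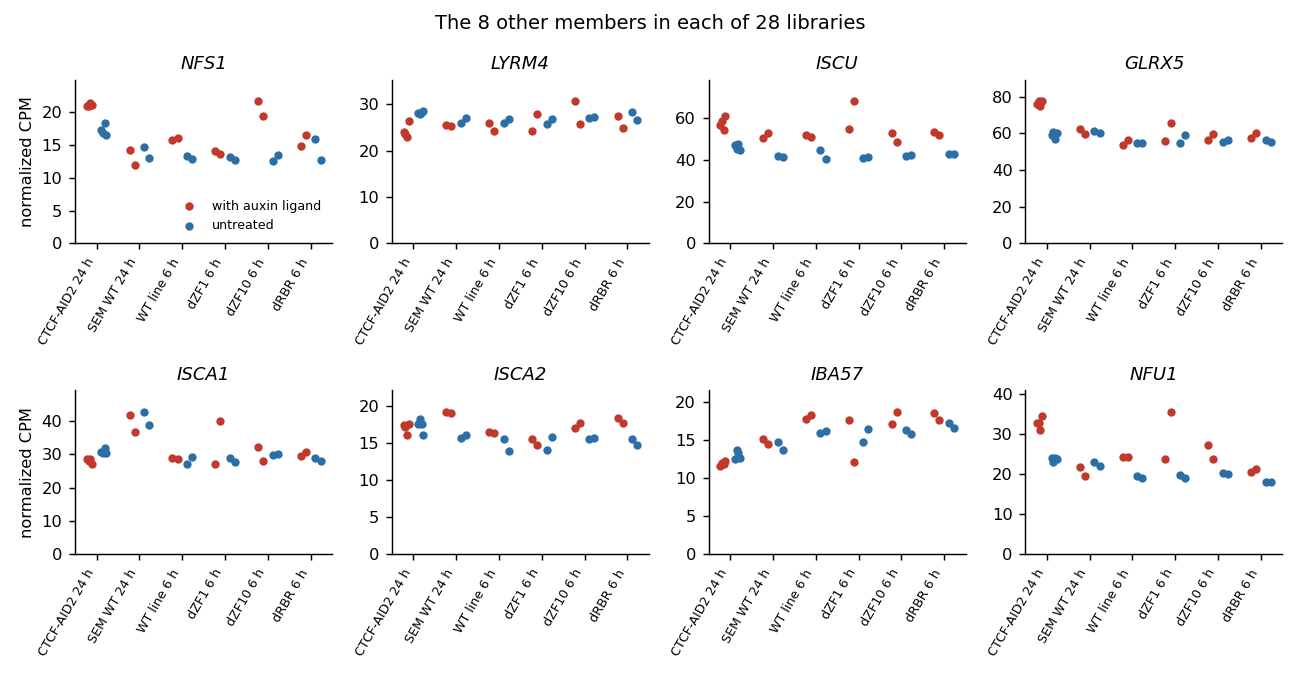
Normalized CPM (vertical axes, from 0) of NFS1, LYRM4, ISCU, GLRX5, ISCA1, ISCA2, IBA57 and NFU1 in each of 28 libraries, by line and time, with auxin ligand (red) left of untreated (blue). NFU1 and ISCU with ligand lie above untreated in CTCF-AID2 cells and in all 4 lines at 6 h, and 1 dZF1 library with IAA lies apart from its replicate for NFU1 (35.6 against 23.8 CPM) and IBA57 (12.1 against 17.7 CPM).

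Counted by line with limma-voom, 2 of the 9 members passed in dZF1 cells (33.6% of all genes tested), 2 in dZF10 cells (18.1%), 0 in WT line cells (13.7%) and 0 in dRBR cells (10.5%). In dZF1 cells 0 passed in the fit on those 4 libraries alone, where over all genes 2 rose and 0 fell. A fit on only the WT line libraries gave 3 members higher (NFU1, ISCU and NFS1), where over all genes 1728 rose and 1734 fell. Such a fit gave 1 member higher in dRBR cells, where over all genes 1333 rose and 1312 fell. The dZF1 count also moved without untreated replicate 2 and without replicate 1 with IAA. The dZF1 counts over all genes moved too when 1 library was left out. At an unadjusted p of at most 0.05 the counts with no call were 3 members in WT line cells and 2 in dRBR cells. Of all 13902 genes, 3866 in WT line cells and 3702 in dRBR cells had such a p. edgeR's quasi-likelihood test gave 0 in both, and DESeq2 gave 0 in WT line cells and 1 in dRBR cells. When the auxin effect of the WT line was subtracted from that of each deletion line, none of the 9 members passed, where 0.331% (dZF1), 0.0432% (dZF10) and 0% (dRBR) of all genes passed. For BOLA3 that difference was -0.36 ± 0.18 for dZF10 (95% interval -0.75 to 0.03, limma-voom adjusted p = 1), 0.29 ± 0.18 for dZF1 (adjusted p = 0.414) and 0.06 ± 0.18 for dRBR (adjusted p = 1). No member passed either between a deletion line and the WT line over both treatments, where 0.0935% (dZF1), 0.0575% (dZF10) and 0% (dRBR) of all genes passed. In these 6 comparisons 0 or 1 member had an unadjusted p of at most 0.05, where 350 to 2403 of all 13902 genes did. For the members edgeR and DESeq2 passed 0. Both dZF1 counts of 0 moved without replicate 1 of dZF1 with IAA. The counts over all genes in these comparisons moved too when 1 library was left out.

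Levels can be compared between genes only per length, as TPM (transcripts per 1e+06 transcripts). By TPM GLRX5 and ISCU, the glutaredoxin and the scaffold, held the top ranks in every group but untreated SEM WT cells, where BOLA3 came before ISCU, with group means of 16.7 to 24.2 TPM for GLRX5 and 16.2 to 30.8 TPM for ISCU over the 12 groups. Their ranges overlapped, so their order is not settled. NFU1 had group means of 9.65 to 19.8 TPM, LYRM4 of 8.22 to 11.5 TPM, ISCA1 of 7.01 to 10.3 TPM and ISCA2 of 5.85 to 7.73 TPM. The tops of the NFU1, ISCU and ISCA1 ranges came from dZF1 cells with IAA, whose replicates 1 and 2 had 12.1 and 27.5 TPM of NFU1 and 21.1 and 40.5 TPM of ISCU, and without that group the highest means were 17.1 TPM for NFU1, 25.3 TPM for ISCU and 9.87 TPM for ISCA1. NFS1 followed at 3.14 to 6.99 TPM, and IBA57 was lowest at 1.13 to 1.83 TPM, below the range of every other member outside treated CTCF-AID2 cells. BOLA3 had group means of 7.35 to 17.4 TPM in 11 groups, overlapping the ranges of NFU1, LYRM4 and ISCA1. The top of the BOLA3 range came from untreated SEM WT cells, whose processing may differ, and the next highest mean was 13.1 TPM (dZF1 cells with IAA). In CTCF-AID2 cells BOLA3 averaged 1.06 ± 0.29 TPM with 5-Ph-IAA and 11.3 ± 0.83 TPM without (SD, n = 4 each). With ligand it was thus level with IBA57, which averaged 1.18 ± 0.27 TPM in the same libraries.

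The wider pathway was read from 6 lists of other genes, 79 of them tested at 24 h, which were chosen by function with earlier results of these data known. In CTCF-AID2 cells 44 of the 79 (55.7%) fell and 9 (11.4%) rose, against 29.5% and 29.2% of all genes tested, and their median log2 fold change was -0.17, against -0.0024 for all genes. None of the 79 rose as much as 2-fold. In SEM WT cells 10 of the 79 (12.7%) fell and 4 (5.06%) rose, near the 9.55% and 9.34% of all genes, with a median log2 fold change of -0.027 (all genes 0.015). In the mean of the 6 h lines 27 (34.2%) fell and 17 (21.5%) rose, against 26.4% and 25.1% of all genes, with a median of -0.040 (all genes -0.0094). These counts moved with single libraries: in SEM WT cells 2 rose without either untreated library, and 6 fell without replicate 2 with IAA. In the 6 h mean 26 rose without replicate 1 of dZF1 with IAA, and 10 to 17 rose when any other library was left out.

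Among 15 genes of core assembly and transfer, 8 (53.3%) fell and none rose in CTCF-AID2 cells, against 29.5% and 29.2% of all genes. SLC25A37, the mitochondrial iron importer mitoferrin 1, stood at 41.6, 40.0, 41.0 and 40.6 CPM with 5-Ph-IAA, against 76.2, 75.8, 75.6 and 81.8 CPM without, and fell by 0.92 ± 0.03 on the log2 scale (limma-voom adjusted p = 1.88e-11). The groups lay far apart, and in SEM WT cells SLC25A37 did not pass (log2 fold change 0.07, adjusted p = 0.306).

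Among 13 mitochondrial enzymes that hold iron-sulfur clusters, 8 (61.5%) fell and 2 (15.4%) rose in CTCF-AID2 cells, against 29.5% and 29.2% of all genes. FECH, the ferrochelatase of heme synthesis, fell by 0.88 ± 0.05 on the log2 scale (limma-voom adjusted p = 1.56e-09), and ETFDH, which passes electrons from fatty acid oxidation to ubiquinone, rose by 0.57 ± 0.05 (adjusted p = 1.75e-07). Of 11 genes of lipoate synthesis and lipoylated enzymes, 8 (72.7%) fell and none rose. GCSH, the lipoylated H protein of glycine cleavage, fell by 0.79 ± 0.04 (adjusted p = 1.41e-09) and DLAT, the lipoylated subunit of pyruvate dehydrogenase, by 0.63 ± 0.03 (adjusted p = 1.67e-09). GCSH overlaps another counted gene on its own strand, and DLAT and ETFDH overlap genes on the other strand, so their values are uncertain.

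Of 12 genes of the cytosolic assembly machinery, 6 (50%) fell and 3 (25%) rose in CTCF-AID2 cells, against 29.5% and 29.2% of all genes. MMS19, which hands clusters to DNA repair and replication enzymes, fell by 0.39 ± 0.03 on the log2 scale (limma-voom adjusted p = 1.09e-07). BOLA2B rose by 0.32 ± 0.04 (adjusted p = 1.08e-05), but it is a near-identical copy of BOLA2 and the split of reads between them is uncertain. Of 19 cytosolic and nuclear enzymes with clusters, 10 (52.6%) fell and 2 (10.5%) rose. ACO1, which is either cytosolic aconitase or, without its cluster, the iron regulatory protein IRP1, stood at 9.67, 9.49, 9.88 and 11.6 CPM with 5-Ph-IAA, against 27.3, 26.4, 28.2 and 26.5 CPM without, and fell by 1.42 ± 0.06 (adjusted p = 6.58e-11). ACO1 did not pass in SEM WT cells (log2 fold change -0.03, adjusted p = 0.787) or in the mean of the 6 h lines (0.01, adjusted p = 0.825). DPH2, a diphthamide synthesis enzyme, fell by 0.65 ± 0.04 in CTCF-AID2 cells (adjusted p = 2.29e-08).

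Of 9 tested genes of iron uptake and storage, 4 (44.4%) fell and 2 (22.2%) rose in CTCF-AID2 cells, against 29.5% and 29.2% of all genes. TFRC, the transferrin receptor, fell by 0.60 ± 0.02 on the log2 scale there (limma-voom adjusted p = 6.65e-11), by 0.20 ± 0.03 in SEM WT cells with IAA (adjusted p = 0.000980) and by 0.13 ± 0.04 in the mean of the 6 h lines (adjusted p = 0.0103). That mean includes dZF1 cells, where TFRC had 326 and 343 CPM with IAA, against 412 and 384 CPM without. In WT line cells TFRC had 399 and 380 CPM with IAA, against 390 and 399 CPM without, and the groups overlapped. In dZF10 and dRBR cells the libraries with IAA lay below the untreated ones. SLC11A2, the divalent metal transporter, fell by 0.47 ± 0.04 in CTCF-AID2 cells (adjusted p = 6.27e-07).

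**Figure D4:**
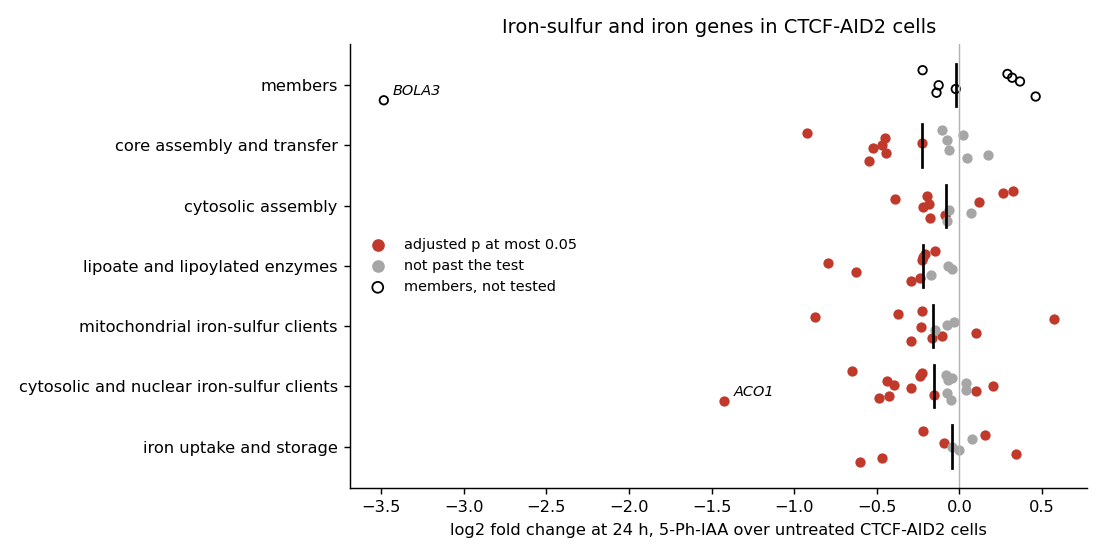
Log2 fold change at 24 h in CTCF-AID2 cells, 5-Ph-IAA over untreated (horizontal axis), of the 9 members (open circles, not tested) and of 76 of the 79 other genes in 6 lists (red, adjusted p at most 0.05, and grey, not past the test). Black lines are medians of the genes drawn. BOLA3 at -3.48 and ACO1 at -1.42 lie apart from the other genes drawn, which lie between -0.92 and 0.57.

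Other genes of these lists changed in SEM WT cells with IAA. NUBPL, which supplies clusters to respiratory complex I, fell by 0.85 ± 0.09 on the log2 scale (limma-voom adjusted p = 2.97e-05). DPYD, a pyrimidine-degrading enzyme, fell by 1.54 ± 0.10 (adjusted p = 1.84e-07) and CDKAL1, a tRNA-modifying enzyme, by 0.84 ± 0.06 (adjusted p = 4.66e-07). OGDH, the oxoglutarate dehydrogenase, fell by 0.21 ± 0.06 (adjusted p = 0.0327), DLAT by 0.14 ± 0.05 (adjusted p = 0.0437), and GLRX3, a cytosolic glutaredoxin, by 0.14 ± 0.05 (adjusted p = 0.0399). The calls of OGDH, DLAT and GLRX3 depended on single libraries, while those of NUBPL, DPYD and CDKAL1 held whichever SEM WT library was left out. The OGDH call was lost whichever of the 4 SEM WT libraries was left out (limma-voom adjusted p of 0.0530 to 0.196). The DLAT call held without replicate 1 with IAA (adjusted p = 0.0347) and was lost without each of the other libraries (up to 0.281). The GLRX3 call held without untreated replicate 2 (adjusted p = 0.0475) and was lost without each of the others (up to 0.212). With no filter on low counts the adjusted p was 0.0919 for OGDH, 0.0716 for DLAT and 0.116 for GLRX3, and with the replicate block it was 0.0593 for DLAT and 0.0632 for GLRX3. FTL, the ferritin light chain, rose by 0.32 ± 0.05 (adjusted p = 0.00107). NUBP2, a cytosolic scaffold protein (log2 fold change 0.23, adjusted p = 0.0983), and FECH (0.15, adjusted p = 0.0934) did not pass.

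In the mean of the 6 h lines the 2 genes with the lowest adjusted p in each list moved both ways. ETFDH rose by 0.47 ± 0.06 on the log2 scale (limma-voom adjusted p = 7.41e-05), DPYD by 0.37 ± 0.04 (adjusted p = 2.21e-05), FAM96B, a cytosolic targeting factor, by 0.26 ± 0.05 (adjusted p = 0.000621), and UQCRFS1, the Rieske protein of complex III, by 0.18 ± 0.03 (adjusted p = 0.000408). DPH1, the partner of DPH2, which shares its strand with the overlapping OVCA2, fell by 0.43 ± 0.05 (adjusted p = 4.90e-05), MMS19 by 0.31 ± 0.05 (adjusted p = 0.000153), and SLC25A37 by 0.31 ± 0.04 (adjusted p = 2.61e-05). STEAP3, an endosomal ferrireductase, fell by 0.29 ± 0.06 (adjusted p = 0.00192), GCSH by 0.22 ± 0.06 (adjusted p = 0.00689), SLC11A2 by 0.20 ± 0.03 (adjusted p = 0.000480) and DLAT by 0.19 ± 0.05 (adjusted p = 0.00882).

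Genes beside BOLA3 on chromosome 2 were read to see how far the low level reached. Of 24 tested genes whose start lies within 500 kb of the BOLA3 start, 10 (41.7%) fell, 2 (8.33%) rose and 12 did not pass in CTCF-AID2 cells at 24 h, against 29.5% and 29.2% of all genes. Their median log2 fold change was -0.079, against -0.0024 for all genes. FNBP1P1, a processed pseudogene 27.2 kb away and the nearest tested gene on that side, was the only one past 2-fold, with 0.719, 0.507, 0.778 and 0.592 CPM with 5-Ph-IAA, against 1.43, 1.75, 1.43 and 1.53 CPM without. FNBP1P1 fell by 1.24 ± 0.16 on the log2 scale (limma-voom adjusted p = 9.65e-06), and its reads may be shared with its parent gene. MOB1A, a Hippo pathway adaptor 31.0 kb away and the nearest on the other side, had 447, 417, 426 and 387 CPM with ligand, against 365, 402, 401 and 398 CPM without, and these overlapped (log2 fold change 0.10 ± 0.04, adjusted p = 0.0705). MTHFD2, a mitochondrial folate enzyme 38.3 kb away, and DGUOK-AS1, 165.7 kb away, were singled out after their values were seen, since they came next in size. MTHFD2 had 151 to 160 CPM with 5-Ph-IAA and 288 to 295 CPM without and fell by 0.92 ± 0.03 (adjusted p = 2.11e-12), while in SEM WT cells MTHFD2 rose by 0.63 ± 0.04 with IAA (adjusted p = 4.72e-08). At 6 h MTHFD2 fell by 0.54 in dZF10 cells (limma-voom adjusted p = 0.000508) and by 0.18 in the mean of the lines (adjusted p = 0.00151). DGUOK-AS1 fell by 0.91 ± 0.14 in CTCF-AID2 cells at 24 h (adjusted p = 5.19e-05). MTHFD2 and DGUOK-AS1 overlap counted genes on the other strand (SLC4A5 with RP11-287D1.3, and DGUOK), so their values may include reads of those genes. BOLA3-AS1 had 0 to 8 counts a library and was not tested.

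**Figure D5:**
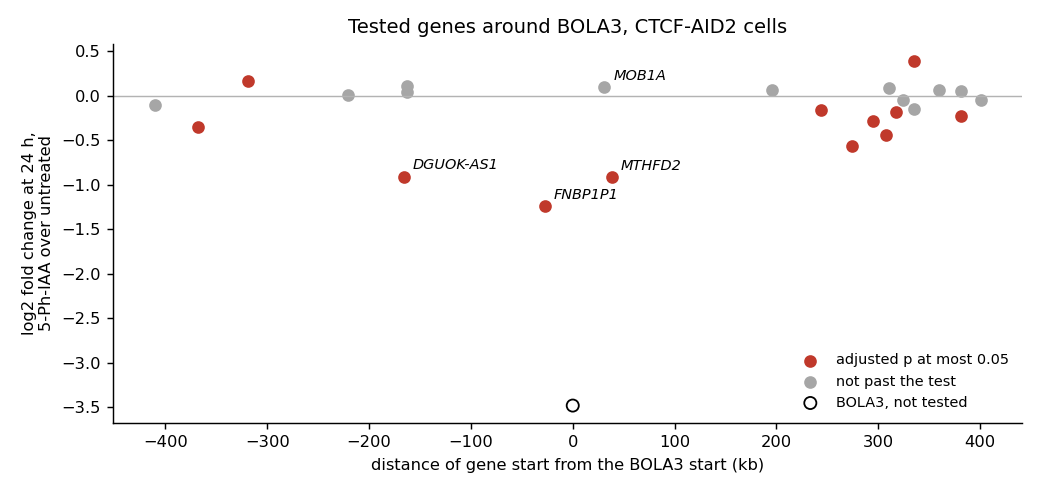
Log2 fold change at 24 h in CTCF-AID2 cells, 5-Ph-IAA over untreated (vertical axis), against the distance of each tested gene's start from the BOLA3 start in kb (horizontal axis), in red where the adjusted p is at most 0.05. BOLA3 (open circle, not tested) is at -3.48, FNBP1P1 at -1.24 is the lowest of 24 neighbors, and MOB1A at 0.10 did not pass.

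The genes most like BOLA3 over all 28 libraries lay on other chromosomes or far from it. Likeness was the Pearson correlation of log2(CPM + 0.5), centred on the untreated mean of the same line, and it is a description with no test. It was ranked over 12391 genes tested in both sets, leaving out genes whose symbol is a clone name. The 5 highest were AAAS (r = 0.992), B3GALTL (r = 0.992), RBM45 (r = 0.991), SAAL1 (r = 0.989) and TTC5 (r = 0.986). All 5 were low in treated CTCF-AID2 cells, at log2 fold changes of -2.16, -2.01, -2.59, -1.92 and -1.56, which follows from ranking over libraries that include these. In SEM WT cells they lay between -0.16 and 0.04 and in the mean of the 6 h lines between -0.12 and 0.03. These correlations rest largely on the 4 treated CTCF-AID2 libraries, and without them they were 0.849, 0.796, 0.679, 0.814 and 0.523 over 24 libraries. Libraries also share line, set and depth. Among the members LYRM4 (r = 0.750) and ISCA1 (r = 0.515) were most like BOLA3 and GLRX5 (r = -0.896) least, and without the treated CTCF-AID2 libraries these were 0.168, 0.498 and 0.190.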

How the data were processed

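Gene expression by RNA-seq in 28 SEM libraries was used. The submitters' processing notes name Trim Galore 0.6.3, STAR 2.7.9a and RSEM 1.3.1, with hg19 as the build. The authors deposited, for every gene and library, an expected count from RSEM (not normalized, and rounded here to whole numbers) and the TPM that RSEM scales by length and total. The 3 series-wide tables hold the values of the 6 h libraries again and were not used. The labels name a 3′ kit and the methods a total stranded one, so comparisons of TPM between genes are uncertain, and strand in counting is not stated.

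Within each set, genes above 1 CPM in at least 1 library were kept (13973 at 24 h, 13902 at 6 h, all 9 members in both) and fitted with limma 3.58.1 voom and TMM factors from edgeR 4.0.16, as in the study's methods. The methods do not state the model, and 1 mean per group and separate fits of the 24 h and 6 h sets were chosen here. BOLA3 in treated CTCF-AID2 libraries, at 0.679 to 1.24 CPM, lies near this filter. P-values were adjusted by Benjamini-Hochberg over all genes of a comparison. CPM are normalized within a set. Passing means an adjusted p no larger than 0.05, and 2-fold is a log2 change of 1. The fits were tested on simulated data. Alternatives were edgeR, DESeq2 1.42.0, other scaling and filters, a replicate block, and leaving out libraries.

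The members and lists were chosen with earlier results of these data known. Named genes are the members, CTCF, of every other list the 2 with the smallest adjusted p in the comparison, neighbors of BOLA3 within 500 kb past an adjusted p of 0.05 and 2-fold with the nearest on either side, and the 5 genes most like BOLA3. Positions come from GENCODE on GRCh37, matched for 55538 of 57820 genes, and promoters from RefSeq on GRCh38.p14, where all 9 members matched. Some genes that this rule would name are not reported here, and they stay in the counts over lists.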

Additional observations from a re-analysis of the deposited data

Results flagged for a closer look

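ISCA1 in untreated CTCF-AID2 cells had 1 library apart from the other 3. Replicate 3 stood at 31.8 CPM, against 30.7, 30.5 and 30.5 CPM in the others, and its gap to the nearest was 0.851 of the range of the group, above Dixon's 95% critical value for 4 libraries. It was the only such value among 18 groups looked at, and chance gives about 1 in 20. Without that library the treated and the untreated groups of ISCA1 still did not overlap.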

How the results depend on the processing

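The alternatives were edgeR and DESeq2 in place of limma-voom, other scaling (RLE factors or library sizes alone), no filter or a stricter one on low counts, a replicate block, a fit on only the groups compared, and each library left out in turn. The fit with no dZF1 library was chosen after seeing the data. Outside leave-one-out fits, BOLA3 kept its direction and its side of the threshold in every comparison but these: it was -0.45 in dZF10 cells with no filter and -0.21 in the 6 h mean with no dZF1 library, where members lower numbered 1. DESeq2 gave 2 members higher in dZF10 cells and 1 in dRBR cells. A fit on only the groups compared gave 3 members higher in WT line cells, 0 in dZF1 cells, 2 in dZF10 cells and 1 in dRBR cells. Over all genes these fits gave 1728 higher in WT line cells, 2 in dZF1 cells and 1333 in dRBR cells. With no filter members lower in dZF10 cells numbered 0. GLRX5 in SEM WT cells, at 0.0035, was -0.00227 by DESeq2, -0.00272 with RLE factors, -0.00809 with library sizes alone and -0.00152 with only the groups compared. Counts over all genes moved more: dZF1 cells fitted on their own 4 libraries gave 2 genes higher and 0 lower, against 2379 and 2286 in the fit on all lines, and with DESeq2 the dZF1 difference from the WT line effect gave 235 higher and 151 lower, against 36 and 10. With no filter 1345 genes changed at least 2-fold in CTCF-AID2 cells, against 497. The cause of these changes was not tested.

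With 1 library left out, and a lone library assumed to vary like the other groups, log2 fold changes of BOLA3 ran from -3.60 to -3.30 in CTCF-AID2 cells, -0.16 to -0.068 in the 6 h mean, -0.00447 to 0.34 in dZF1, -0.52 to -0.38 in dZF10 and -0.15 to 0.021 in dRBR cells. Differences from the WT line effect ran from 0.10 to 0.45 for dZF1 and -0.044 to 0.13 for dRBR, and lines against the WT line from 0.25 to 0.42 for dZF1 and -0.012 to 0.063 for dZF10. In SEM WT cells ISCA1 ran from -0.16 to 0.023, GLRX5 from -0.027 to 0.028 and NFS1 from -0.21 to 0.039, LYRM4 in the 6 h mean from -0.056 to 0.0059, and NFS1 in dRBR cells from -0.023 to 0.29. Members higher ran from 1 to 2 in SEM WT cells, 1 to 5 in dZF1 cells, 0 to 4 in the dZF1 difference and 0 to 5 in dZF1 against the WT line, and members lower from 0 to 1 in the 6 h mean, dZF1 and dZF10 cells, the dZF1 difference and dZF1 against the WT line.

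Replicate numbers are shared between groups but did not pair the libraries: deviations of same-numbered libraries correlated at -0.22 to 0.16. With the replicate block BOLA3 in dZF10 cells was -0.47 (adjusted p = 0.0316), and the block changed no call of a member. It ended the calls of DLAT (adjusted p = 0.0593) and GLRX3 (adjusted p = 0.0632) in SEM WT cells. Depth limits BOLA3 in treated CTCF-AID2 libraries, with 41 to 68 counts each, more than any other member.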
